A study of Zea mays with 10 samples.

Results

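The regions described here are 876 sites called as FEA4 binding peaks in young maize tassels. They lie in the middle of a chromosome and have no other replicated site within 10 kb. FEA4, short for FASCIATED EAR4, belongs to the bZIP transcription factors, a family that grips DNA with a basic region and pairs through a leucine zipper. Maize plants without it form enlarged shoot meristems and broad, flattened ears, so the gene is known as a brake on meristem size. Maize chromosomes have most of their genes towards the ends, while their centres are rich in nested transposable elements and hold the centromere.

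Binding was measured by chromatin immunoprecipitation with sequencing (ChIP-seq) in tassel primordia of 2 to 5 mm from field-grown plants that carried YFP-tagged FEA4. The ChIP libraries were 2 precipitates made with an antibody to GFP, and each has an input library of unprecipitated chromatin with the same replicate number. The labels give the genotype of all 4 libraries as normal B73, and the protocol gives the plants as families with 1 transgene integration event (A399S1-7) that complemented the mutant, a line that the series text calls pFEA4-YFP::FEA4. All 4 libraries were sequenced in 1 run of a MiSeq. No library from plants without the transgene was analysed here, so antibody signal that does not depend on tagged FEA4 was not set apart. The labels do not say how many plants went into a replicate. The series also holds ear RNA-seq of fea4 mutants and fea4/+ siblings, which was not used here because that table gives no gene positions. For the same reason no site is placed in or near a gene here.

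The sites were selected on the authors' peak calls in both replicates. A replicate 1 peak on chromosomes 1 to 10 counted as shared where it overlapped a replicate 2 peak by at least 1 bp. A shared peak counted as isolated where no other shared peak had its replicate 1 summit within 10 kb, and as middle where its summit lay between 25% and 75% of chromosome length, taking the last peak end in either list as the length. The rest of the chromosome, below 25% and above 75%, is called the outer parts here. Of 5020 peaks in the replicate 1 list, 5018 lay on these chromosomes, and 4115 of them (82.0%) were shared with the 9644 peaks of replicate 2. Of the 4115 shared peaks, 876 were isolated in the middle (21.3%), 1791 were isolated in the outer parts and 1448 were clustered. With the overlap rule dropped, the same steps gave 1043 sites from the replicate 1 list alone and 1803 from the replicate 2 list alone. Since overlap, distance and position chose the sites, these counts are a description and carry no test.

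Peak calls rested on few fragments. The summit height, which is the pileup of fragments at the highest point of a peak, was a whole number at every site. Among the 876 sites it had a median of 7 and a range of 3 to 33 in replicate 1, and a median of 13 and a range of 3 to 71 in replicate 2. Read as a fragment count, a height of 7 has a 95% Poisson interval of 2.81 to 14.4 and a height of 13 one of 6.92 to 22.2, for counting error only. The labels and files do not state the total depth of the libraries, so neither heights nor scores were put on a common scale between replicates. Sites are not replicates of a condition and there were 2 precipitates, so no p-value was computed, and differences are given by chromosome and by replicate.

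Isolated sites were sparser in the chromosome middles than in the outer parts on every chromosome. The middles together held 0.852 sites per Mb and the outer parts 1.74 isolated sites per Mb, a ratio of 0.489. The density of the middle was below that of the outer parts on 10 of 10 chromosomes, and on 10 of 10 the 95% Poisson intervals of the 2 densities did not overlap. These intervals take sites as independent counts, while the sites come from 2 precipitates and were chosen by spacing and position. The separation is therefore a description and not a test. Each peak list by itself had the same direction, with 10 of 10 chromosomes below 1 in both. Isolated peaks of the replicate 1 list had a middle over outer ratio of 0.484 and those of the replicate 2 list one of 0.551. The lists are not separate from the shared peaks, which made up 82.0% of replicate 1 peaks. In replicate 2 they made up 41.7% of middle and 42.0% of outer peaks. Over every peak, isolated or not, the ratio was 0.422 in replicate 1 and 0.434 in replicate 2.

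**Figure D1:**
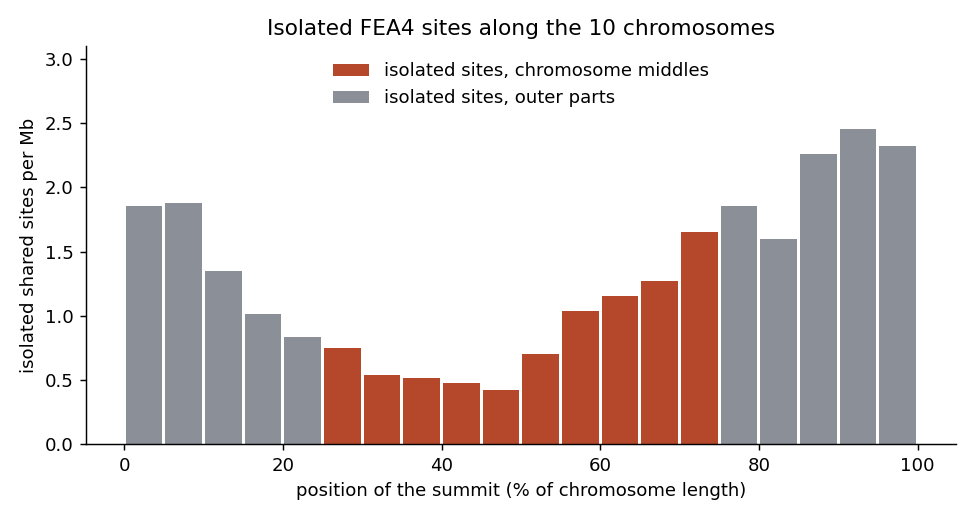
Isolated shared FEA4 sites per Mb (y axis) in bins of 5% of chromosome length (x axis), summed over the 10 chromosomes, with the middle sites in red and the outer parts in grey. Among the red bars the lowest is that from 45% to 50% of length, at 0.418 sites per Mb, and the highest is that from 70% to 75%, at 1.65.

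Within the middle the sites were spread unevenly. Density was 0.749 sites per Mb from 25% to 30% of length, and it was lowest from 45% to 50%, at 0.418 sites per Mb with 43 sites. From there it was higher in each further bin, up to 1.65 sites per Mb from 70% to 75%, where 170 sites lay. The first part of the middle (25% to 50%) held 277 sites and the second (50% to 75%) 599. On 8 of 10 chromosomes the second part held more, as on chromosome 7 with 81 sites against 10. The exceptions were chromosome 5, with 32 sites in the second part and 58 in the first, and chromosome 2, with 31 and 34. The bar plot of position shows this slope over the pooled chromosomes. The limits of 25% and 75% did not mark a step in the pooled density. The outer bins from 15% to 25% held 1.01 and 0.837 isolated sites per Mb. Middle bins from 55% to 75% held more, at 1.04 to 1.65, while the other outer bins held 1.35 to 2.45.

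Median scores showed no such slope, while median replicate 1 width was highest in the densest bin and lowest in the sparsest. The median replicate 1 score was 87.4 in the second part of the middle and 87.1 in the first, and the median replicate 2 score was 162 and 163. A MACS score is larger where the precipitate exceeds its input with a smaller p-value. Across the bins of 5% of length, replicate 1 medians ran from 81.8 to 98.7 and replicate 2 medians from 145 to 190, and the sparsest bin had 82.4 in replicate 1 and 187 in replicate 2. The densest bin had 94.3 in replicate 1 and 162 in replicate 2, so its score was above that of the sparsest bin in replicate 1 and below it in replicate 2. The median replicate 1 width was 670 bp in the densest bin, the highest of the 10 bins, and 579 bp in the sparsest, the lowest. It was 625 bp in the second part of the middle and 597 bp in the first. Width did not follow density in every bin. From 30% to 40% of length, with 0.535 and 0.516 sites per Mb, median replicate 1 widths were 622 and 633 bp. From 55% to 65%, with 1.04 and 1.16 sites per Mb, they were 611 and 610 bp. Replicate 2 width was not summarised by bin, and these widths were not tested.

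Chromosome by chromosome, the middle density covered a 2.12-fold range. Chromosome 8 had the highest value, with 102 sites and 1.16 sites per Mb (95% Poisson interval 0.947 to 1.41). Chromosome 1 had 170 sites and 1.13 per Mb, chromosome 7 had 91 and 1.03, and chromosome 9 had 77 and 0.984. These 4 lay above the pooled density of 0.852. Chromosomes 10 and 5 were close to each other, with 62 sites and 0.828 per Mb and 90 sites and 0.827 per Mb. Chromosome 3 had 81 sites and 0.698 per Mb, chromosome 6 had 57 and 0.675, and chromosome 4 had 81 and 0.672. Chromosome 2 had the lowest value, with 65 sites and 0.549 per Mb (0.423 to 0.699). In that order the intervals of all 9 pairs of neighbours overlapped. Those of chromosomes 8 and 2 did not, but this pair was picked as the highest and lowest of 10. The intervals take sites as independent counts, and differences between chromosomes were not tested.

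**Figure D2:**
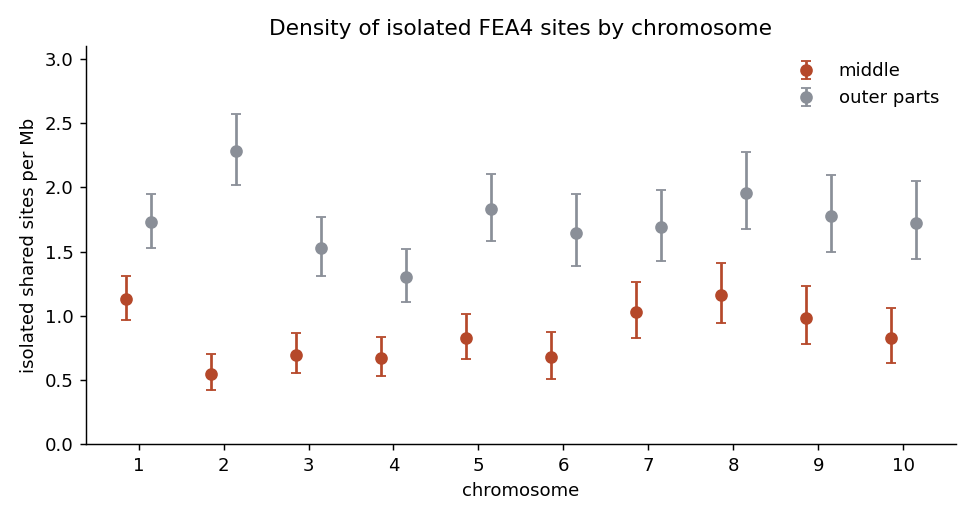
Isolated shared sites per Mb (y axis) by chromosome (x axis), for the middle (red) and the outer parts (grey); bars are 95% Poisson intervals for counting error only. Each red point lies below the grey point of its chromosome, with the widest separation on chromosome 2.

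Chromosome 2 had the greatest contrast between its parts. It held 65 isolated sites in its middle and 270 in its outer parts, a ratio of 0.241. Its outer density of 2.28 isolated sites per Mb was the highest of the 10 chromosomes, while its middle density was the lowest. Chromosome 1 had the smallest contrast in isolated sites, with 170 middle and 260 outer sites and a ratio of 0.654. Chromosome 2 had the lowest ratio in each list by itself too, at 0.258 for isolated peaks of replicate 1 and 0.376 for those of replicate 2. Both lists include the shared peaks. Chromosome 1 had the highest for isolated peaks in both, at 0.623 and 0.734. Over every peak, isolated or not, chromosome 2 was again lowest, at 0.227 and 0.224, but chromosome 4 was highest, at 0.601 and 0.713.

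The sites were also far apart, which is not a trait separate from their lower density. The rule asked only for a distance above 10 kb, and the median distance to the nearest other shared summit was 174 kb among the middle sites, with quartiles of 59.1 and 449 kb. Among isolated sites of the outer parts the median was 107 kb, with quartiles of 43.8 and 260 kb. The chromosome median was larger in the middle on 9 of 10 chromosomes. The exception was chromosome 7, with 90.4 kb in the middle and 97.9 kb in the outer parts, although its density was lower in the middle. A distance above 1 Mb was found for 94 middle sites (10.7%) and 56 outer sites (3.13%).

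**Figure D3:**
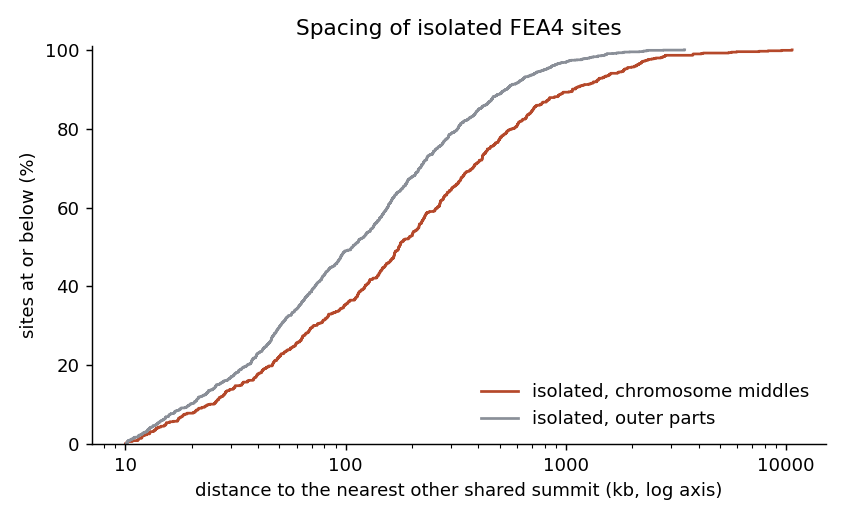
Share of isolated sites (y axis, %) at or below a given distance to the nearest other shared summit (x axis, kb, log axis), for chromosome middles (red) and outer parts (grey). The red curve lies to the right, with medians of 174 kb and 107 kb, and it ends at 10645 kb.

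The most isolated site was chr6:46780265-46780988 (build AGPv2), with 10645 kb to its nearest shared neighbour. It had scores of 102 in replicate 1 and 115 in replicate 2, with heights of 6 and 12. Next came chr7:62301670-62302138, at 9545 kb, with scores of 55.0 and 59.5, and chr1:141038612-141039313, at 8279 kb, with scores of 92.8 and 215. The median scores of middle sites were 87.2 in replicate 1 and 162 in replicate 2. The site on chromosome 1 was above both, and that on chromosome 6 above the first only. The site on chromosome 7 was below both and near the lowest score in the lists. Over the 876 sites Spearman's rho of score with this distance was -0.003 in replicate 1 and -0.033 in replicate 2. The longest stretch between adjacent members was on chromosome 1, 20.8 Mb from 39.9% to 46.9% of its length, and it held 0 shared peaks, 0 replicate 1 peaks and 7 replicate 2 peaks. The shortest such stretch was on chromosome 10, at 5.09 Mb. On 7 of 10 chromosomes the longest stretch held 0 shared peaks, and every one held replicate 2 peaks (4 to 19).

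Unreplicated peaks lay beside a smaller share of the members than of the isolated outer sites. A peak found only in replicate 1 had its summit within 10 kb of 34 middle sites (3.88%), and of 95 isolated outer sites (5.30%). A peak found only in replicate 2 lay that near to 190 middle sites (21.7%) and to 559 isolated outer sites (31.2%). Over all shared peaks, clustered ones included, the shares were 6.15% and 32.8%. For 664 of the 876 middle sites (75.8%) neither list held any other peak within 10 kb, against 1184 of 1791 in the outer parts (66.1%). This was so for 44.9% of all shared peaks, among which the clustered ones have such a neighbour by their definition. Crowding was lower in the middle for shared peaks too: 70.6% of the 1241 shared middle peaks were isolated, against 62.3% of the 2874 shared outer peaks. Isolation is the value that the rule used. Both lists held fewer peaks in the middle, 1488 against 3530 in replicate 1 and 2919 against 6721 in replicate 2. Fewer neighbours go with that lower density, and the shares in this paragraph were not adjusted for it. The share was higher in the middle on 9 of 10 chromosomes, chromosome 4 being the exception, with 63.8% in the middle and 75.1% in the outer parts.

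In strength, the medians of the middle sites were close to those of isolated sites elsewhere. Their replicate 1 score had a median of 87.2, with quartiles of 66.4 and 128, against a median of 88.7 (66.2 and 134) in the outer parts. Their replicate 2 score had a median of 162, with quartiles of 98 and 277, against a median of 162 (99.9 and 270). By chromosome, the middle median was higher on 4 and lower on 6 chromosomes in replicate 1, and higher on 5 and lower on 5 in replicate 2. Widths had a median of 619 bp in replicate 1 and 788 bp in replicate 2 among middle sites, against 616 and 788 bp in the outer parts. Median heights were 7 and 13 in the middle, against 6 and 13. By chromosome, median width was larger in the middle on 7 of 10 in replicate 1 and on 6 of 10 in replicate 2. Median height was higher on 4 and lower on 3 in replicate 1, and higher on 2 and lower on 5 in replicate 2, with ties on the rest. These differences in medians were small beside the quartile ranges, and none had the same direction on all 10 chromosomes.

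Clustered sites, those with another shared summit within 10 kb, had higher medians in all but replicate 1 height. They were taken from whole chromosomes, and 365 of the 1448 lay in the middle, so the 2 sets differ in position too. The median score was 87.2 in replicate 1 and 162 in replicate 2 for the middle sites, against 95.1 and 205 for the clustered sites. The median width was 619 and 788 bp for the middle sites, against 654 and 915 bp for the clustered sites. The median replicate 2 height was 13 in middle sites and 14 in clustered sites, and the median replicate 1 height was 7 in both. The gap was wider in replicate 2 than in replicate 1 for all 3 measures, and it was not tested.

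Scores by chromosome differed less than densities did. In replicate 1 the median score of middle sites ran from 84.8 on chromosome 9 to 92.5 on chromosome 2. The quartiles of every chromosome took in the medians of all the others. In replicate 2 the medians ran from 136 on chromosome 2 to 217 on chromosome 3, so chromosome 2 had the highest median in one replicate and the lowest in the other. Chromosome 3 was second in replicate 1, at 92.4. The highest scores on chromosome 10 were 277 in replicate 1 and 477 in replicate 2, the lowest such maxima of the 10 chromosomes.

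**Figure D4:**
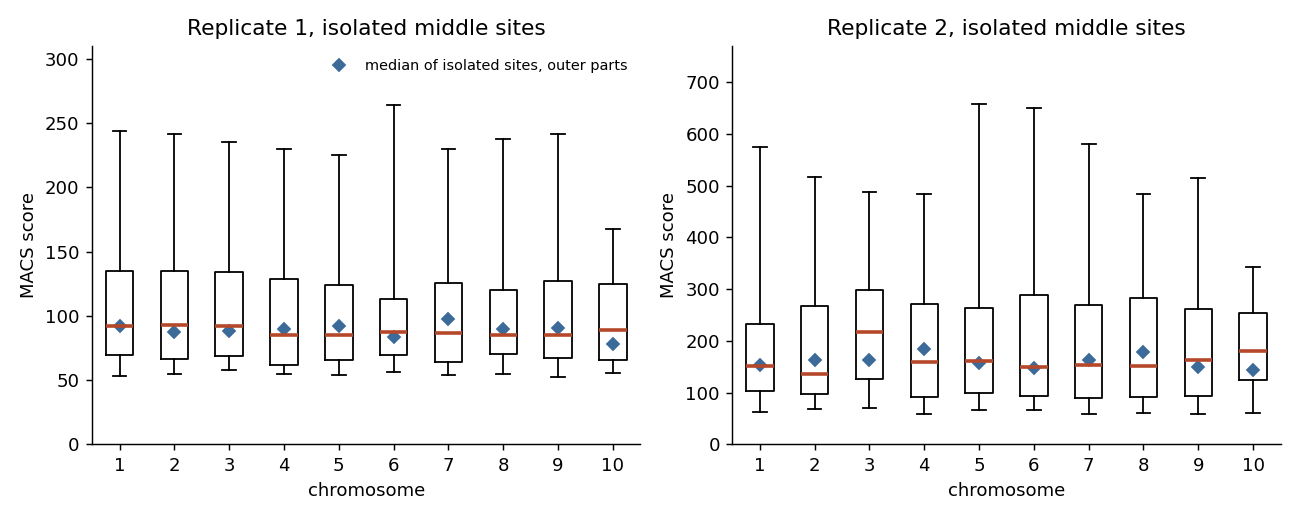
MACS scores (y axis) of the middle sites by chromosome (x axis) in replicate 1 (left) and replicate 2 (right): red lines are medians, boxes are quartiles and whiskers the 5th to 95th percentile, and blue diamonds are the medians of isolated sites in the outer parts. The diamonds fall within the box of their chromosome in both panels.

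Widths and heights by chromosome were equally close. Median replicate 1 width ran from 560 bp on chromosome 9 to 672 bp on chromosome 6, and median replicate 2 width from 700 bp on chromosome 10 to 863 bp on chromosome 8. Median height was 6 or 7 on every chromosome in replicate 1 and 12 to 15 in replicate 2. A height of at least 20 was reached by 17 middle sites in replicate 1 (1.94%) and by 200 in replicate 2 (22.8%), against 2.38% and 25.8% of all shared peaks. A height of 5 or less was found at 315 sites in replicate 1 (36.0%), against 34.0% of all shared peaks.

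Overlap between replicates chose the sites, so their positions in the 2 replicates are a description and not evidence of agreement. The summits of the 2 replicates lay a median of 48 bp apart, and within 100 bp at 679 of 876 middle sites (77.5%), where the share over all shared peaks was 74.7%. In the outer parts the share was 77.0% and among clustered sites 70.2%. The replicate 2 peak covered the whole replicate 1 peak at 409 middle sites (46.7%) and under 50% of it at 18 (2.05%), where the shares over all shared peaks were 48.2% and 1.85%. At 9 middle sites 2 replicate 2 peaks overlapped 1 replicate 1 peak, and the partner with the larger overlap was used.

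Replicate 2 gave the larger values at most sites. Its score was higher at 732 of 876 middle sites (83.6%), its height at 831 (94.9%) and its width at 656 (74.9%). The median ratio of its height to that of replicate 1 was 2.00. The shares were close to those over all shared peaks, at 84.4%, 94.6% and 77.1%, so replicate 2 was higher over the shared peaks in general. Over the 876 sites Spearman's rho between replicates was 0.55 for scores, 0.66 for heights and 0.47 for widths. These are descriptions over sites that share their libraries. The outer parts gave 0.56, 0.64 and 0.47.

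**Figure D5:**
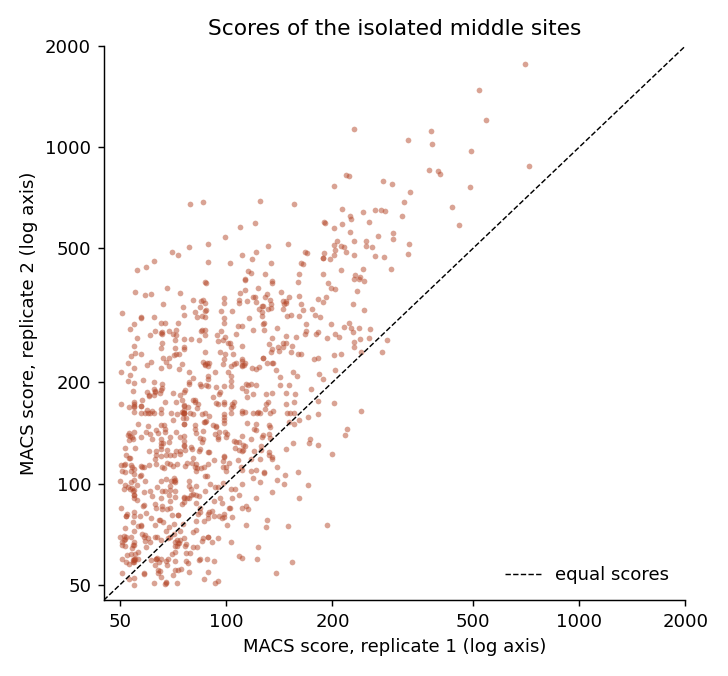
MACS score in replicate 2 (y axis, log axis) against replicate 1 (x axis, log axis) for the 876 middle sites, each point a site; the dashed line marks equal scores. Of the 876 points 732 lie above the line, and the point at the top is the site on chromosome 5 with scores of 704 and 1773.

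The sites that were strongest in replicate 1 mostly scored high in replicate 2 too. With the middle sites ranked by replicate 1 score into 4 groups of 218 to 221, the median replicate 2 score was 112 in the lowest group, 126 and 163 in the next, and 316 in the highest. The distance between summits went the other way, with a median of 55 bp in the lowest group and 37 bp in the highest. The 87 sites with the highest replicate 1 scores and the 87 with the highest replicate 2 scores had 55 in common (63.2%). A score of at least 200 in both replicates was reached by 83 middle sites (9.47%), close to the 10.7% of all shared peaks, to 9.55% of outer isolated sites and below the 12.8% of clustered sites. These 83 were 9.35% of the sites in the second part of the middle and 9.75% of those in the first, and by chromosome they ranged from 2 of 62 on chromosome 10 to 12 of 90 on chromosome 5. None of these shares was tested.

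The site with the highest replicate 2 score was chr5:143601477-143602640, a peak of 1164 bp at 66.0% of chromosome length. It scored 704 with a height of 33 in replicate 1 and 1773 with a height of 71 in replicate 2, the greatest heights of any middle site in both, and its summits lay 16 bp apart. A second site on the same chromosome, chr5:160172954-160174189, scored 522 and 1482, with heights of 18 and 49 and summits 13 bp apart. The third by replicate 2 score was chr6:123849809-123850546, with 545 and 1202, heights of 29 and 63 and a width of 738 bp, the narrowest of these 3. All 3 lay in the second part of the middle, at 66.0% to 73.6% of length.

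The highest replicate 1 score belonged to chr2:61303461-61304998, a wide peak of 1538 bp that scored 720 in replicate 1 and 879 in replicate 2. Its heights were 23 and 24, so it lacked the higher replicate 2 pileup seen at most sites, and its 2 summits lay 675 bp apart within overlapping peaks. It lay 13.7 kb from the next shared summit. The fifth by replicate 1 score was chr8:108678868-108679589, with 495 and 972, heights of 21 and 57 and a shared neighbour at 17.7 kb.

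The leading site of each other chromosome was taken by its mean rank in the 2 replicates. On chromosome 1 it was chr1:90908458-90909400, with scores of 404 and 834 and heights of 22 and 48. On chromosome 3 it was chr3:137580784-137581737, with 375 and 854, and on chromosome 4 chr4:173296342-173297430, with 399 and 849. Both of these had heights of 15 in replicate 1 and lay about as far from a neighbour, at 494 and 520 kb. On chromosome 7 it was chr7:45655304-45656132, with 384 and 1025 and heights of 32 and 68, close to those of the leading site on chromosome 5. On chromosome 9 it was chr9:117319134-117320591, with 491 and 761. On chromosome 10 it was chr10:50915790-50916508, with scores of 159 and 399, ranks 7 and 3 on its chromosome and well below the other leaders. It was the most isolated of the leading sites, with 2091 kb to its nearest shared neighbour.

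At the other end, the lowest replicate 1 scores were 50.06, 50.10 and 50.26, just above the lowest score in the list. They belonged to chr1:161708673-161709132, chr3:118968566-118969116 and chr7:129947655-129948450. Their replicate 2 scores were 69.4, 102 and 173, so the last of these was above the replicate 2 median of middle sites. Their heights were 4, 3 and 6 in replicate 1 and 7, 10 and 12 in replicate 2.

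Width followed score only loosely, with Spearman's rho of 0.34 in replicate 1 over the 876 sites. The widest peak, chr8:73895662-73897663, spanned 2002 bp in replicate 1 and 2083 bp in replicate 2, with scores of 133 and 351 and heights of 7 and 16. Its heights were lower than those of the next widest, chr2:71309160-71310850 with 1691 bp and scores of 296 and 556, and chr1:170300143-170301822 with 1680 bp and scores of 327 and 1050. The narrowest were chr1:217290936-217291168 with 233 bp, chr7:75134168-75134416 with 249 bp and chr3:91553401-91553666 with 266 bp. Their partners in replicate 2 were wider, at 789, 620 and 445 bp. A width of at least 1000 bp in replicate 1 was found at 65 middle sites (7.42%), 168 outer isolated sites (9.38%) and 175 clustered sites (12.1%).

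The nearest members to the 10 kb limit were the leading site of chromosome 9, at 10.008 kb, and chr3:172126728-172127662, at 10.052 kb with scores of 74.9 and 177. Just outside it were 2 neighbours of each other, chr4:156923484-156923977 and chr4:156932845-156933797, 9.942 kb apart, with replicate 1 scores of 66.0 and 184. At the 25% limit the members chr2:59376698-59377353 and chr5:54613853-54614440 had replicate 1 scores of 53.5 and 57.3. Just outside, chr4:59851088-59851630 and chr2:58286017-58286763 had 57.1 and 167. At the 75% limit the members were again the leading site of chromosome 9 and chr7:132390528-132391482, with 491 and 224. Just outside, chr3:174071209-174071686 and chr2:177860265-177860806 had 68.1 and 95.4, both below the 2 members. These are 2 sites on each side of a limit and carry no test.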

How the data were processed

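ChIP-seq peaks were called by the authors in each replicate, per the labels, which name 1 list for the precipitate and the input of a number, and the submitters' processing notes name CASAVA, Bowtie 0.12.7 and MACS 1.4.0rc2. The deposited lists give each peak's position with a MACS score, and each summit's position with its height, a signal of fragment pileup. Chromosome names in the files name the build AGPv2, and positions are given here counted from 1. Per the sample titles each list was assigned to the precipitate of its number. Peaks outside chromosomes 1 to 10 were left out (2 in replicate 1 and 4 in replicate 2). The lowest scores were 50.03 and 50.01, so weaker sites were not seen.

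Peaks were joined and summarised with Python 3.11.15, pandas 2.3.3 and scipy 1.17.1. The steps were tested on planted peaks in made-up lists, and all classes were recovered. No test was run, since sites are not replicates. Poisson intervals cover counting error only. Sites named in the text are, by rule, the best mean rank on each chromosome and the extremes of score, width and distance, with those nearest each limit. The members and this rule were chosen with earlier results of these data known. The planned link to expression was not run: the expression table has no positions, and no genome or annotation of AGPv2 was used here, so no gene or sequence is given for a site.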

Additional observations from a re-analysis of the deposited data

How the results depend on the processing

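The ratio of middle to outer density stayed below 1 under all 11 alternatives. Asking for a score of at least 100 in both replicates, with isolation counted anew among the peaks that passed, gave 387 sites, where 319 of the 876 had both scores that high. The 387 had a median replicate 1 score of 148, a median width of 745 bp and a density ratio of 0.437. Without the replicate 2 list and its overlap, the replicate 1 list gave 1043 sites and a ratio of 0.484. Their median score was 80.3, their median width 578 bp and their median height 6. The longer replicate 2 list by itself gave 1803 sites and a ratio of 0.551. Their medians in replicate 2 were 92.7 for score, 664 bp for width and 9 for height. At the 876 sites the replicate 2 medians were higher, at 162, 788 bp and 13. Taking coordinates and values from replicate 2 gave medians of 162 for score, 798 bp for width and 13 for height, which are that library's own values, with 891 sites. Further settings were an overlap of 50%, summits within 100 bp, and isolation at 5 or 20 kb or among all replicate 1 peaks. Windows of 20% to 80% or 30% to 70% were also used. These moved no count by over 1.5 times (629 to 1153 sites). Median scores were 86.9 to 91.6, widths 608 to 622 bp and heights 7, with ratios of 0.463 to 0.508. The SD between replicates was 53.0 for score, 119.5 bp for width and 4.24 for height. It mixes 2 libraries not on a common scale, so it is a wide yardstick for these moves. No paired analysis was possible because the results come from no test. Median heights of 7 and 13 limit the precision of values for single sites.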

Other observations

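At 4 middle sites the replicate 1 score was at least 200 and the replicate 2 score below 200. They were chosen after their values were seen. The site chr2:80424203-80424714 scored 165 in replicate 2 and 241 in replicate 1, and chr4:76779514-76780135 scored 174 and 202. The sites chr6:108304415-108305359 and chr8:101157292-101158076 scored 140 and 145 in replicate 2, against 217 and 220 in replicate 1. Their replicate 2 heights were 25, 22, 9 and 10, and their replicate 1 heights 14, 11, 8 and 11. In the other direction, 250 middle sites scored at least 200 in replicate 2 and less in replicate 1. A score of at least 200 was reached by 9.93% of middle sites in replicate 1, 38.0% in replicate 2 and 9.47% in both. Over all shared peaks the shares were 11.3%, 43.0% and 10.7%, so this imbalance was not particular to the middle sites.

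Scores took repeated values. Among the 876 middle sites there were 683 distinct scores in replicate 1 and 735 in replicate 2, and 18 sites had the replicate 2 score of 162.17, which was also the median of that replicate in the middle and in the outer parts. The equal medians of the middle and outer sites are thus 1 repeated value.

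The 876 sites had median scores of 87.2 in replicate 1 and 162 in replicate 2, and peaks of the chromosome middles found in 1 replicate only had lower medians. The rule kept only peaks called in both lists, which favours stronger peaks, so such a gap is built in and carries no test. The unshared peaks were also not filtered for isolation, so the sets differ in more than replication. These 247 peaks of replicate 1 had a median score of 64.2 and a median height of 5, and 1701 peaks of replicate 2 had a median score of 75.9 and a median height of 7. Of the middle peaks in the replicate 1 list 83.4% were shared, against 81.4% in the outer parts, and of those in the replicate 2 list 41.7%, against 42.0%.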
